A study of Mus musculus with 20 samples.

Results

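Collagen genes encode the chains of the most abundant structural proteins of the extracellular matrix. They were taken here as every gene of the RNA tables whose symbol is Col, digits, a and digits, and 44 of the 22594 genes present in all 4 tables met that rule. By the kind of assembly their products form, 11 are fibrillar, 9 belong to basement membranes, 9 are fibril-associated (FACIT), 11 form beaded filaments or short chains, and 4 span the cell membrane. Col7a1 was listed only on a line shared with the microRNA Mir711, so its values hold both.

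Collagen chains are wound into rope-like helices in the endoplasmic reticulum, after hydroxylation of their prolines and lysines and with the help of dedicated chaperones. Fibrillar procollagens are trimmed outside the cell and cross-linked into fibres, which fibroblasts make in bulk, whereas type IV collagen forms a sheet-like network and type VI fine beaded filaments. Some types mark other tissues, such as type II and type IX in cartilage, type X in the growth plate and type XVII in skin.

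The cells were mouse embryonic fibroblasts (MEFs) from Pml-null mice (KO), which lack the scaffold protein of PML nuclear bodies, and wild-type MEFs (WT), both on a C57BL/6 background and used at passage 10 to 15. All were grown without treatment to confluency, except that cells for chromatin immunoprecipitation (ChIP) of the histone variant H3.3 had been transfected with H3.3 that bore either a Flag or an HA epitope. RNA came from cells that had not been transfected. Each genotype had 1 ChIP library for each of H3.3-Flag, H3.3-HA, H3K27me3, H3K9me3, H3 and PML, and 2 sets of RNA, namely 3 numbered replicates that the authors merged into 1 table and 1 unnumbered sample with a table of its own.

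With 1 table per genotype in each pair and 1 library per target, no value had a replicate error in these files. Differences between KO and WT are therefore descriptions without a test. The number of embryos behind each genotype was not given, and read depth is unknown.

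Most fibroblast markers were present in both genotypes. Of 10 fibroblast markers, 8 in KO and 8 in WT of the numbered tables reached 1 FPKM (a fragment count corrected for transcript length and library size), and all 10 did in KO and WT of the unnumbered tables. Thy1, a surface marker of fibroblasts, had 0.100 FPKM in KO and 0.141 in WT of the numbered tables, against 120.3 in KO and 209.8 in WT of the unnumbered ones. Among muscle markers, Des had 57.1 FPKM in KO against 2.70 in WT and Acta1 6.61 against 70.5 in the numbered pair. In the unnumbered pair Des had 5.07 FPKM in KO against 21.7 in WT and Acta1 43.8 against 10.4. Epithelial markers summed to 0.450 FPKM in KO and 0.0265 in WT of the numbered tables, and to 0.633 and 0.655 FPKM in KO and WT of the unnumbered ones. Macrophage markers, 11 genes, summed to 4.07 FPKM in KO against 99.4 in WT of the unnumbered pair, with Tyrobp and Aif1 listed at 0 in KO and 10 of the genes at 1 FPKM or more in WT. In the numbered pair the same genes summed to 0.973 FPKM in KO and 1.09 in WT, with 6 and 8 of them listed at 0. Xist, the RNA of the inactive X chromosome, had 0.0517 FPKM in KO against 19.5 in WT of the numbered pair, and the Y-linked Ddx3y had 7.67 against 0.0384. In the unnumbered pair Xist had 8.25 FPKM in KO and 5.89 in WT, and Ddx3y 11.4 and 21.7. The part of these muscle, macrophage and sex-linked signals in the collagen values was not tested. Pml RNA was present in both KO tables, at 10.2 FPKM in KO against 15.0 in WT of the numbered pair and 4.22 against 7.62 in the unnumbered pair, and which exons the allele lacks was not stated. PML regions numbered 35 in KO and 484 in WT.

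The promoters of 35 of the 44 genes were matched in the RefSeq table of GRCm38.p6, the assembly of mm10, as windows from 250 bases before the start to 50 after it. Those shown belong to genes whose RNA or chromatin values recur in the results, namely a type I and a type III chain (Col1a2, Col3a1), the head-to-head basement membrane pair (Col4a1, Col4a2), and a pair of minor fibrillar genes with different chromatin in KO and WT (Col5a3, Col11a2). Capitals mark matches, on either strand, to the letters CCAAT of a CCAAT box, the letters GGGCGG of a GC box and the letters TATAAA of a TATA box. No match overlapped another in the windows shown. The windows are Col1a2 at chr6:4505368-4505667 (plus strand), Col3a1 at chr1:45311288-45311587 (plus), Col4a1 at chr8:11312777-11313076 (minus), Col4a2 at chr8:11312555-11312854 (plus), Col5a3 at chr9:20815018-20815317 (minus) and Col11a2 at chr17:34038888-34039187 (plus).
Col1a2: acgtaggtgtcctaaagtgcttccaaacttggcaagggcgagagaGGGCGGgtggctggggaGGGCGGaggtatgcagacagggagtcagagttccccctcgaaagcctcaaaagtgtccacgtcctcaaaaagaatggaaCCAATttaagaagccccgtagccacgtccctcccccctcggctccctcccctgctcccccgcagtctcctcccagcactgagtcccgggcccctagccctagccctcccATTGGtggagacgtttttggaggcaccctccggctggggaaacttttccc
Col3a1: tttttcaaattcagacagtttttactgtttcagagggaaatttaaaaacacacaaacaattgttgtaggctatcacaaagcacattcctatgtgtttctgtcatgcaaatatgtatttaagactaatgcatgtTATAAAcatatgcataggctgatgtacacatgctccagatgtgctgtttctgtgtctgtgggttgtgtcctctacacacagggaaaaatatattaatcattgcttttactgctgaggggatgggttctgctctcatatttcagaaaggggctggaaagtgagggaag
Col4a1: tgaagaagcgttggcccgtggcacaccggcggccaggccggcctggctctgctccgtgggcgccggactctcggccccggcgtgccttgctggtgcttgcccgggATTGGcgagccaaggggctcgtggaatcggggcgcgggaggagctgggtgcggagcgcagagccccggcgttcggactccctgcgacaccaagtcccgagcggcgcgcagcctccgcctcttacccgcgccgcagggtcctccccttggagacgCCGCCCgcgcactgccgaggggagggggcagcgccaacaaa
Col4a2: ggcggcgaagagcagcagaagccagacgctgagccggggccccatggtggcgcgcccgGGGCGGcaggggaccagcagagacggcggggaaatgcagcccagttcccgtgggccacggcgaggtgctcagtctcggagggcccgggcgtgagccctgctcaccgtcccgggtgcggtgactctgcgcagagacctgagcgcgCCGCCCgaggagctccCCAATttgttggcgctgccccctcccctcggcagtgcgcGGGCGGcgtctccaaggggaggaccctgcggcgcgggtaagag
Col5a3: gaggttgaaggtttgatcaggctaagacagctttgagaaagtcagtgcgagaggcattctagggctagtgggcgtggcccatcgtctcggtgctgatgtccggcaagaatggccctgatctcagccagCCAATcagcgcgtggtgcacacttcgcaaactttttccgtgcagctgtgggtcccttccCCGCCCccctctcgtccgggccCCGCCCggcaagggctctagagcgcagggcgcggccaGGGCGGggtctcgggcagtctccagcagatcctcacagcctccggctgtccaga
Col11a2: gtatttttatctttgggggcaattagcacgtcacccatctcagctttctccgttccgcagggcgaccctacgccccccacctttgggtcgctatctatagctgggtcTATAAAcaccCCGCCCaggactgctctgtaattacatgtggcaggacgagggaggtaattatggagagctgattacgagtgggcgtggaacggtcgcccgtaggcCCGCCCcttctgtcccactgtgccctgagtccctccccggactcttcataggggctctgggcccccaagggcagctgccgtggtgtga
The starts of Col4a1 and Col4a2 lie 21 bases apart on opposite strands, so that their windows share 78 bases. Of the 35 collagen windows, 22 (62.9%) held GGGCGG, the letters of a GC box, against 36.2% of all 26794 windows. The windows of that background were not limited to protein-coding genes, whereas the collagen genes all are protein-coding. CCAAT was in 12 (34.3%) of the collagen windows against 38.1% of all windows, and TATAAA in 5 (14.3%) against 14.2%. The TATAAA windows were those of Col3a1, Col10a1, Col11a2, Col13a1 and Col17a1. Median GC content was 60.0% in collagen windows and 52.7% in all windows. The Col3a1 window, at 37.7%, had the lowest GC content of the collagens, and that of Col5a1, at 75.0%, the highest. A match is a description of the letters and not of a bound factor.

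Collagens made up 0.731% of all FPKM in KO and 0.676% in WT of the numbered pair, and 1.71% in KO and 2.12% in WT of the unnumbered pair. Leaving out the genes of ribosomal proteins turned the order of the numbered pair, with 0.896% in KO and 1.14% in WT, and kept that of the unnumbered pair, with 2.02% in KO and 2.58% in WT. In bulk RNA, less RNA per cell and fewer cells that make it cannot be told apart. Fibrillar chains held most of this pool, at 78.0% in KO and 81.7% in WT of the numbered pair and 83.3% in KO and 82.6% in WT of the unnumbered pair. Basement membrane chains were the next largest class of the numbered pair, at 10.9% in KO and in WT. The beaded filament and short-chain class was next in the unnumbered pair, at 6.74% in KO and 8.31% in WT, against 5.16% and 4.20% for basement membrane chains. Col1a1 led in KO and in WT of the numbered pair, and Col1a2 in KO and in WT of the unnumbered pair. Behind the type I genes came Col3a1 in KO and Col4a1 in WT of the numbered pair, and Col5a2 in KO and Col3a1 in WT of the unnumbered pair.

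**Figure D1:**
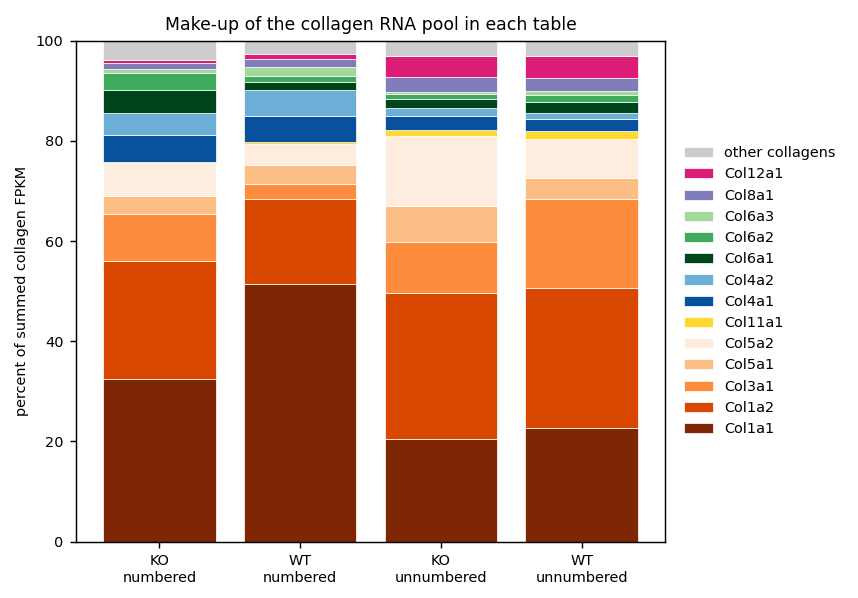
Percent of the summed FPKM of all collagen genes (y axis) in the KO and WT tables of each pair (x axis), 1 bar per table with no replicates, and each colour 1 gene. Col1a1 takes 32.5% of the pool in numbered KO against 51.4% in numbered WT, and 20.6% in unnumbered KO against 22.7% in unnumbered WT.

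The sums of the tables differed between KO and WT, more so in the numbered pair. Summed FPKM was 417175 in KO against 964437 in WT of the numbered pair, and 508827 in KO against 524662 in WT of the unnumbered pair. The 82 genes of cytosolic ribosomal proteins held 18.4% of FPKM in KO against 40.5% in WT of the numbered pair, and 15.3% against 17.8% in the unnumbered pair. Most collagens called in the numbered pair were lower in KO as deposited, with 12 of 23 genes lower by 2-fold or more and 1 higher, but with both tables rescaled to the same sum 7 were higher and 0 lower. Among all 11056 genes of that pair, 6.50% were higher and 15.7% lower as deposited, against 57.6% higher and 5.53% lower rescaled to the same sum. That rescaling moved the median of all genes used to 1.15 on the log2 scale, from which the collagen median differed by -1.08. As deposited, the median of all genes was 0.06 and the collagens lay -1.06 from it. Without the ribosomal protein genes in the sum, 5 collagens were higher and 6 lower, against 36.3% and 8.68% of all genes. Without them the collagen median lay -1.14 from that of all genes. The sign of a collagen's difference in the numbered pair thus depended on the scaling for 6 genes (Col1a2, Col2a1, Col4a1, Col4a5, Col5a1 and Col5a2) when rescaled to the same sum. Ratios between collagens within a table do not depend on the scaling.

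Genes were used at 1 FPKM or more in either genotype, and differences are KO minus WT of log2(FPKM + 1), which understates the change of low genes. In the numbered pair 23 of 44 collagens were used and in the unnumbered pair 28. Of those 28, 1 was higher by 2-fold or more and 5 were lower, against 1.75% and 3.83% of all 11688 genes. The median difference was -1.0002 in the numbered pair as deposited (0.075 with the tables rescaled to the same sum) and -0.35 in the unnumbered pair, where the median of all genes was 0.01. Differences below 0 made up 24 of the 28 in the unnumbered pair, against 5669 of all 11688 genes. Of the 22 genes used in both pairs, 12 were below 0 in both as deposited. Another 9 had opposite signs and 1 was above 0 in both. That tally changes with the 6 signs that turn on rescaling, and the same tally over all genes was not computed.

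**Figure D2:**
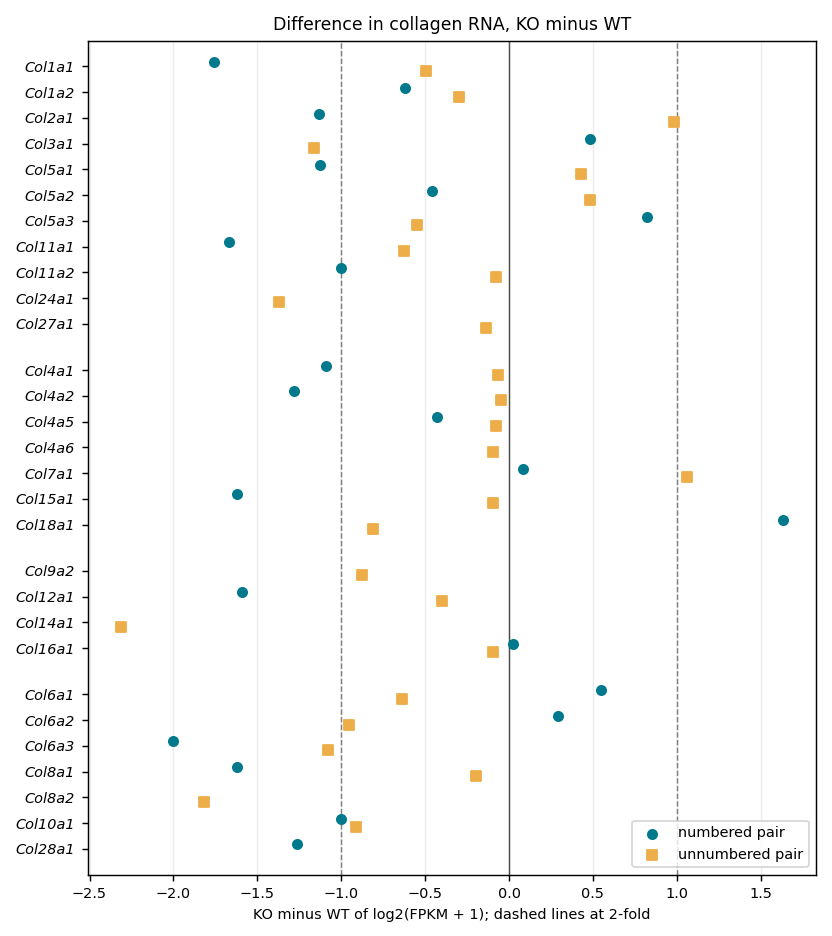
KO minus WT of log2(FPKM + 1) (x axis) for each collagen gene with at least 1 FPKM in a table (y axis, by class), with circles for the numbered and squares for the unnumbered pair, each from 1 table per genotype, and dashed lines at 2-fold. Col6a3 is the gene past the lower line in both pairs, at -2.00 and -1.08, and numbered values move up when the tables are rescaled to the same sum, those of Col1a2, Col2a1, Col4a1, Col4a5, Col5a1 and Col5a2 across 0.

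Type I collagen, the main fibre of skin, bone and tendon, was the largest product. Col1a1 (chromosome 11, 94936224 to 94953042), which encodes the chain present in most copies, had 990.2 FPKM in KO against 3354 in WT of the numbered pair, and 1794 against 2527 in the unnumbered pair. Col1a2 (chromosome 6, 4505618 to 4541543), its partner chain, had 718 FPKM in KO against 1103 in WT, and 2533 against 3109. Both were lower in KO in each pair as deposited, by log2 differences of -1.76 and -0.49 for Col1a1 and -0.62 and -0.30 for Col1a2, and with the tables rescaled to the same sum the numbered differences were -0.55 for Col1a1 and 0.59 for Col1a2. The ratio of Col1a1 to Col1a2 was 1.38 in KO and 3.04 in WT of the numbered pair, and 0.708 and 0.813 in the unnumbered pair.

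Col3a1 (chromosome 1, 45311538 to 45349706), the chain of type III collagen of soft tissue, differed in sign between the pairs. It had 285 FPKM in KO against 204 in WT of the numbered pair, and 886 against 1984 in the unnumbered pair, with log2 differences of 0.48 and -1.16. The ratio of Col3a1 to Col1a1 was accordingly 0.288 in KO and 0.0608 in WT of the numbered pair, and 0.494 in KO and 0.785 in WT of the unnumbered pair.

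Type V chains, which set the width of type I fibres, did so as well. Col5a1 had 109 FPKM in KO against 239 in WT of the numbered pair, and 641 against 476 in the unnumbered pair. Col5a2, next to Col3a1 on chromosome 1, had 203 FPKM in KO against 279 in WT, and 1207 against 863. Log2 differences were -1.13 and 0.43 for Col5a1, and -0.46 and 0.48 for Col5a2, and the numbered ones were 0.075 and 0.74 with the tables rescaled to the same sum. Col5a3, the minor type V chain, had 12.2 FPKM in KO against 6.45 in WT of the numbered pair, and 8.65 against 13.1 in the unnumbered pair. Its differences of 0.82 and -0.55 had the opposite sign to those of its partners in each pair as deposited, and the numbered one was 1.98, of the same sign as theirs, with the tables rescaled to the same sum.

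The fibrillar genes best known from cartilage were present as well. Col2a1, the chain of cartilage fibres, had 50.6 FPKM in KO against 111.9 in WT of the numbered pair, and 81.0 against 40.4 in the unnumbered pair, a log2 difference of -1.13 as deposited (0.063 rescaled to the same sum) and 0.99. Col11a1, which is built into the same fibres, had 8.15 FPKM in KO against 28.1 in WT, and 112 against 173, lower in KO in both pairs at -1.67 and -0.62 and still at -0.55 in the numbered pair rescaled to the same sum. Of 7 chondrocyte markers, 1 (Sox9) reached 1 FPKM in each numbered table and 2 (Sox9 and Comp) in each unnumbered one, and Matn1 was listed at 0 in all. They summed to 8.96 FPKM in KO and 23.2 in WT of the numbered pair, and to 9.56 and 11.5 in the unnumbered pair, and their part in the cartilage collagens was not tested. Col11a2, the partner of Col11a1, had 0.345 FPKM in KO against 1.69 in WT, and 1.13 against 1.24. Its numbered difference of -0.9999 just missed 2-fold, and that of Col10a1, at -1.0002, just reached it.

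Col24a1 and Col27a1, the more recently described fibrillar genes, were low. Col24a1 had 0.00813 FPKM in KO and was listed at 0 in WT of the numbered pair, and had 0.385 FPKM in KO against 2.58 in WT of the unnumbered pair (log2 difference -1.37). Col27a1, a cartilage chain, had 0.897 FPKM in KO and 0.860 in WT, and 5.45 and 6.09. Over the class, 4 of 9 fibrillar genes were at least 2-fold lower and 0 higher in the numbered pair as deposited, against 0 lower and 2 higher (Col3a1, Col5a3) when rescaled to the same sum. Of 11 in the unnumbered pair, 2 were lower (Col3a1, Col24a1) and 0 higher.

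**Figure D3:**
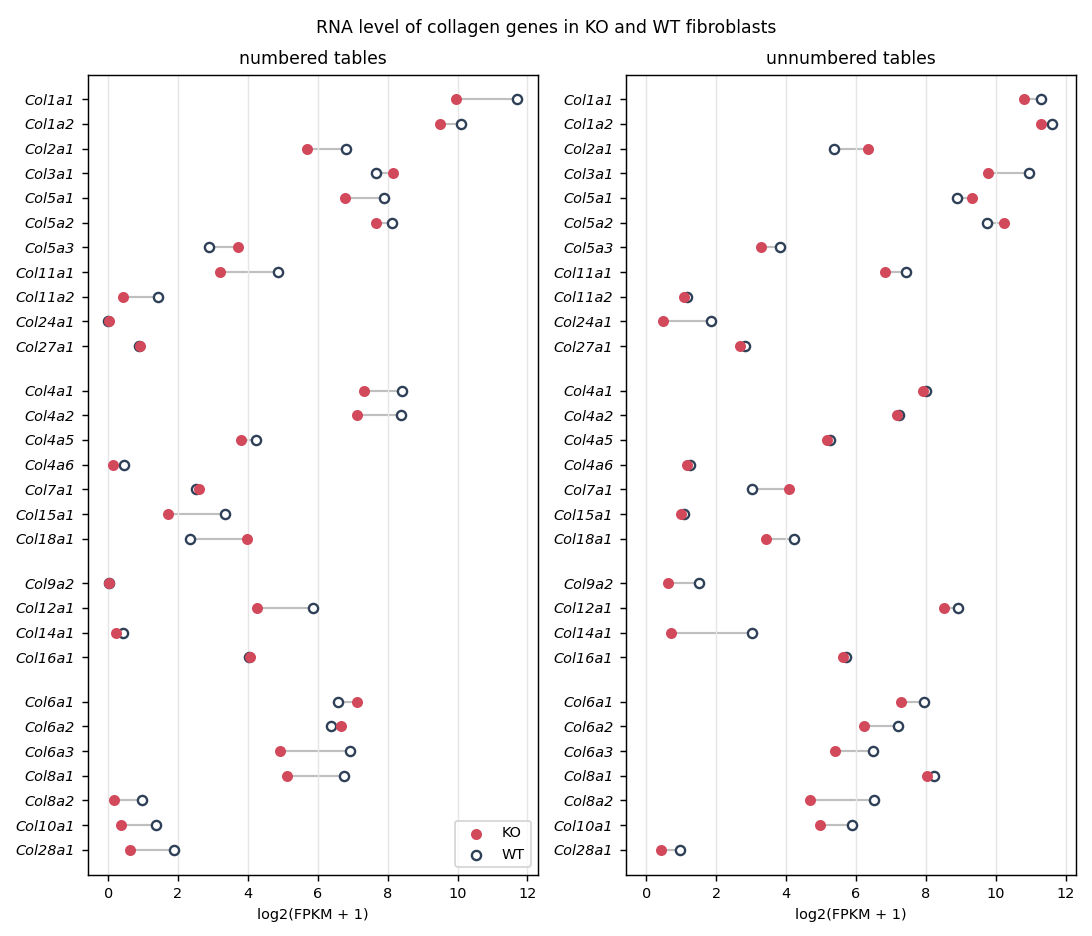
RNA level as log2(FPKM + 1) (x axis) of the collagen genes with at least 1 FPKM in a table (y axis, by class, from fibrillar at the top through basement membrane and FACIT to beaded filament and short chain) in the numbered (left) and unnumbered (right) tables, with filled points for KO and open points for WT, each 1 table. KO lies left of WT for most genes in both panels as deposited, and Col18a1, Col3a1, Col5a1 and Col5a2 are among those that swap sides between the panels.

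Most basement membrane collagens had close values in KO and WT of the unnumbered pair. Col4a1 (chromosome 8, 11198423 to 11312889) and Col4a2 (11312805 to 11449287) encode the chains of the common type IV network and overlap head to head. Col4a1 had 159.85 FPKM in KO against 342 in WT of the numbered pair, and 243 against 254 in the unnumbered pair. Col4a2 had 137 FPKM in KO against 336 in WT, and 144 against 149. Both had similar log2 differences, of -1.09 and -0.07 for Col4a1 and -1.28 and -0.05 for Col4a2, and their ratio was 1.16 in KO and 1.02 in WT of the numbered pair and 1.68 and 1.71 in the unnumbered pair. When rescaled to the same sum, the numbered differences were 0.11 for Col4a1 and -0.08 for Col4a2.

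The type IV chains of the X chromosome, also head to head, were lower in level. Col4a5 had 12.9 FPKM in KO against 17.7 in WT of the numbered pair, and 35.2 against 37.2 in the unnumbered pair. Col4a6 had 0.098 FPKM in KO against 0.373 in WT, and 1.24 against 1.40. Xist differed between the genotypes of the numbered pair as given above. Col4a3 and Col4a4, the chains of the kidney filter, stayed under 1 FPKM in each table.

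The remaining basement membrane genes differed by the pair. Col18a1, whose end fragment is endostatin, had 14.7 FPKM in KO against 4.07 in WT of the numbered pair, and 9.74 against 17.8 in the unnumbered pair. It was the collagen at least 2-fold higher in the numbered pair as deposited, at 1.63, and stood at -0.81 in the unnumbered pair. Col15a1, its closest relative, had 2.27 FPKM in KO against 9.07 in WT of the numbered pair, and 0.983 against 1.12 in the unnumbered pair (-1.62 and -0.09). The Col7a1 line, for the chain of the anchoring fibrils of skin, had 5.05 FPKM in KO and 4.72 in WT, and 15.8 and 7.08, which made it the collagen at least 2-fold higher in the unnumbered pair, at 1.06. In this class 3 of 6 genes were at least 2-fold lower and 1 higher in the numbered pair as deposited (0 and 2 rescaled to the same sum), and 0 of 7 lower and 1 higher in the unnumbered pair.

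Type VI collagen gave the gene with the same call in both pairs. Col6a3 (chromosome 1, 90766860 to 90844001), its largest chain, had 29.1 FPKM in KO against 119.7 in WT of the numbered pair, and 41.3 against 88.5 in the unnumbered pair. It was at least 2-fold lower in KO in both, at -2.00 and -1.08, and at -0.82 in the numbered pair rescaled to the same sum. Col6a1 had 139.6 FPKM in KO against 95.2 in WT of the numbered pair, and 156 against 244 in the unnumbered pair. Col6a2, which lies 85.2 kb from Col6a1 on chromosome 10, had 101 FPKM in KO against 82.0 in WT, and 74.6 against 145. These partner chains were above 0 in the numbered pair, at 0.55 and 0.29, and below 0 in the unnumbered pair, at -0.64 and -0.95. The ratio of Col6a3 to Col6a1 was 0.209 in KO and 1.26 in WT of the numbered pair, and 0.265 in KO and 0.363 in WT of the unnumbered pair, so it was lower in KO in each. The other type VI genes, Col6a4, Col6a5 and Col6a6, were under 1 FPKM in each table.

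The short-chain collagens and Col28a1 each had less RNA in KO than in WT in both pairs as deposited, but none was used in both pairs with a difference of 2-fold or more in each. Col8a1, a chain of vessel and cornea, had 33.9 FPKM in KO against 106.5 in WT of the numbered pair, and 259.5 against 298 in the unnumbered pair. Its partner Col8a2 had 0.121 FPKM in KO against 0.975 in WT, and 24.9 against 90.4, a log2 difference of -1.82 in the unnumbered pair. Col10a1, the growth plate chain, had 0.30 FPKM in KO against 1.60 in WT, and 30.6 against 58.6. Col28a1, expressed around nerves, had 0.547 FPKM in KO against 2.71 in WT, and 0.334 against 0.945. In the numbered pair rescaled to the same sum, Col8a1, Col10a1 and Col28a1 stood at -0.44, -0.63 and -0.72. In this class 4 of 6 genes were at least 2-fold lower and 0 higher in the numbered pair as deposited (0 lower and 2 higher, Col6a1 and Col6a2, rescaled to the same sum), and 2 of 6 lower and 0 higher in the unnumbered pair.

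FACIT collagens sit on the surface of fibres. Col12a1 had 18.3 FPKM in KO against 57.2 in WT of the numbered pair, and 368 against 486 in the unnumbered pair (-1.59 and -0.40, and -0.43 for the numbered pair rescaled to the same sum). Col14a1, its relative, had 0.175 FPKM in KO and 0.335 in WT of the numbered pair, and 0.632 against 7.11 in the unnumbered pair. Its difference of -2.31 was the farthest from 0 of the collagens in that pair. Col16a1 had 15.7 FPKM in KO and 15.4 in WT, and 48.0 and 51.3. Its numbered difference, 0.02 as deposited, was 1.18 with the tables rescaled to the same sum. Col9a2, from cartilage, had 0.00728 FPKM in KO and 0.0225 in WT, and 0.549 against 1.84. The 15 genes used in neither pair, among them the 4 membrane-spanning ones (Col13a1, Col17a1, Col23a1 and Col25a1), ranged from listed at 0 to 0.825 FPKM.

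The chromatin of the 44 genes was read as the share of the gene body inside the regions the authors called, with a gene counted as covered at 50% or more and as gained or lost where the share differed by 50 percentage points or more between KO and WT. The background was 21523 protein-coding genes. H3.3 is the histone variant laid down outside DNA replication, in active genes as well as in heterochromatin. H3K27me3 is the mark of Polycomb repression, and H3K9me3 that of heterochromatin.

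H3.3-Flag lay over the abundant collagens in both genotypes. It covered 10 collagens in KO (22.7%, against 22.5% of all genes) and 9 in WT (20.5%, against 21.4% of all genes), shares near those of all genes. Col1a1, Col1a2, Col3a1, Col4a1, Col5a1 and Col5a2 were wholly covered in both, and Col12a1 and Col8a1 for 99.9% and 82.6% in KO and for 99.9% and 84.1% in WT. A single region of 197 kb in KO and 206 kb in WT spanned Col3a1 and Col5a2 together. Over Col4a1 and Col4a2 the KO region ran for 263 kb, and in WT a region of 125 kb covered Col4a1 whole while Col4a2 was split among 5 regions. Col4a2 was therefore covered for 100% in KO and 47.2% in WT, the 1 gain (2.60% of all genes). The RNA of Col4a2 was 137 FPKM in KO against 336 in WT of the numbered pair as deposited, and 144 and 149 in the unnumbered pair. Col6a3 was covered for 87.0% in KO and 44.3% in WT, short of the limit for a gain.

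Of the 14 collagens with 100 FPKM or more in at least 1 table, 10 were covered by H3.3-Flag in KO and 8 in WT, against 70.4% of 1113 genes at that level in each genotype, so that in KO the share was near that of other abundant genes. Those without cover in either were Col2a1, Col6a1, Col6a2 and Col11a1. Col6a1 was covered for 7.26% of its body and Col6a2 for 0%, in KO as in WT. Among 15 collagens with their highest value between 1 and 100 FPKM, 0 were covered in KO and 1 in WT, against 32.5% and 30.5% of 9789 genes.

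H3K27me3 lay over most of the silent collagens and some of those at a middle level. It covered 17 in KO (32.2% of all genes) and 21 in WT (33.6% of all genes). Of the 14 with 100 FPKM or more it covered 0 in either genotype. Of 1113 genes at that level it covered 5.03% in KO and 5.48% in WT, so that 0 is near that share. Of the 15 collagens under 1 FPKM in all tables, 12 were covered in KO and 13 in WT, against 60.7% and 61.6% of 7572 genes at that level. Of the 15 with their highest value between 1 and 100 FPKM, 5 were covered in KO and 8 in WT, against 11.4% and 14.4% of 9789 genes. Col9a1, Col13a1, Col26a1 and Col4a3, from cartilage, muscle junctions, gonads and kidney, were wholly covered in both. The region over Col9a1 in KO had a signal of 0.51. No collagen was covered by H3.3-Flag and H3K27me3 in KO, and in WT Col5a3 was. The share of all genes covered by both was not computed, so this overlap has no background to be read against.

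**Figure D4:**
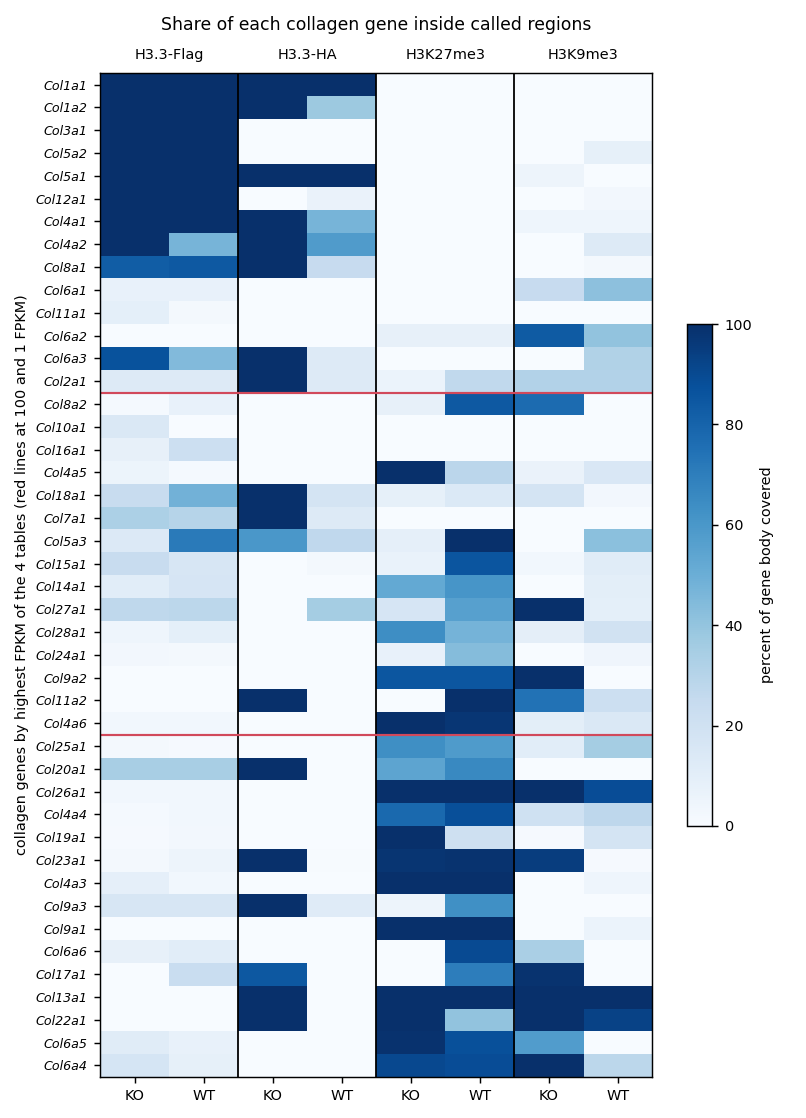
Percent of each gene body inside called regions (colour, from 0 to 100), for the 44 collagen genes ordered by their highest FPKM (y axis) and for 4 targets, KO left of WT (x axis), each column 1 library. H3.3-Flag fills most top rows in KO and WT, and H3K27me3 most bottom rows and some middle ones. The H3.3-HA and H3K9me3 columns are fuller in KO, with 18 and 12 genes at 50% or more, than in WT, with 3 and 3.

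H3K27me3 differed between KO and WT over 10 collagens. It was gained over 3 (4.45% of all genes), Col4a5, Col19a1 and Col22a1, and lost over 7 (5.37% of all genes), Col5a3, Col6a6, Col8a2, Col9a3, Col11a2, Col15a1 and Col17a1. The KO region over Col19a1, 572 kb long and shared with Col9a1, had a signal of 0.51, against a median of 6.5 for H3K27me3 regions in KO. With a signal of at least 1, 2 were gained (4.36% of all genes) and 8 lost (5.76%). Col19a1 was then not among the gains, and Col9a1 was among the losses. Col5a3 (chromosome 9, 20770050 to 20815117) had 8.77% of its body in KO against 100% in WT, and 0% in KO against 100% in WT within 1 kb either side of the start, whose promoter is printed above. H3.3-Flag at Col5a3 went the same way, with 13.3% of the body in KO against 71.2% in WT and 0% against 100% at the start, which made it the 1 loss of H3.3-Flag (2.36% of all genes). Its RNA was 12.2 FPKM in KO and 6.45 in WT of the numbered pair, and 8.65 and 13.1 in the unnumbered pair.

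Col11a2 (chromosome 17, 34038919 to 34066684) had H3K27me3 over 0% of its body in KO against 100% in WT, likewise at the start, and RNA at no more than 1.69 FPKM. At Col15a1 and Col8a2 the start kept 100% in KO as in WT, while the body had 6.96% and 8.01% in KO against 85.6% and 84.3% in WT. Col15a1 and Col8a2 thus kept a region at the promoter and differed downstream of it. Neither had more RNA in KO than in WT in any pair, with values given above. Col17a1 (70.1%), Col6a6 (89.5%) and Col9a3 (63.1%) were covered in WT against 0%, 0% and 4.95% in KO, and stayed under 1 FPKM in each table. At Col19a1 and Col18a1 the start was covered for 100% in KO against 0% in WT. Col4a5 and Col4a6 lay in a single region of 15852 kb in KO on the X chromosome. In WT the longest region over Col4a5 was 792 kb and that over Col4a6 was 1660 kb. Col4a5 had 100% in KO against 28.5% in WT. Of the 21 genes covered in WT, 11 also lay in H3 regions, the control for histone occupancy, and 6 of the 17 in KO. The same shares over all genes covered by H3K27me3 were not computed.

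H3K9me3 covered more collagens in KO at the 50% limit. It lay over 12 in KO (27.3%, against 25.4% of all genes) and 3 in WT (6.82%, against 19.2% of all genes), with 8 gained (13.2% of all genes) and 0 lost (7.42%). Col13a1, Col22a1 and Col26a1 were covered in both, the first for 100% in each. With a signal of at least 1, 2 were covered in WT (14.5% of all genes), Col22a1 and Col26a1. Col6a2 was covered for 83.4% in KO and 40.3% in WT, short of the limit for a gain. At a limit of 25% H3K9me3 lay over 14 in KO and 11 in WT, against 30.0% and 25.4% of all genes. Within 5 kb of the start it lay over 6 and 4 of the 35 collagens with a matched start. The shares of all 17274 genes with one were 23.3% and 18.3%. With any cover at all it lay over 25 in KO and 29 in WT, for which the shares of all genes were not computed. The gained genes were Col6a4, Col6a5, Col8a2, Col9a2, Col11a2, Col17a1, Col23a1 and Col27a1, with 57.8% to 100% of the body in KO against 0% to 28.0% in WT. Col8a2, Col11a2 and Col17a1 had both an H3K9me3 gain and an H3K27me3 loss. The share of all genes with both was not computed. Over Col8a2 H3K9me3 had 77.0% in KO against 0% in WT, and 100% against 0% at the start, where H3K27me3 was present in both. Col27a1, at 100% in KO against 9.09% in WT, had 0.897 FPKM in KO and 0.860 in WT of the numbered pair, and 5.45 and 6.09 in the unnumbered pair. Both neighbours Col6a4 and Col6a5 lay in the same 252 kb region in KO. The signal values of these regions were 4.20 to 10.2 in KO. They were not set against WT signals here, since the scaling was not given. Of the 12 KO genes, 7 also lay in H3 regions, and all 3 of the WT genes did. This overlap was not computed for all genes covered by H3K9me3.

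The HA-tagged H3.3 gave another picture than the Flag-tagged one. H3.3-HA covered 18 collagens in KO (27.1% of all genes) and 3 in WT (8.73%), with 14 gained (21.1%) and 0 lost (3.03%). Those covered in WT were Col1a1, Col4a2 and Col5a1. In KO the calls were long and faint. The region over Col4a1 and Col4a2 ran for 6817 kb with a signal of 0.37, whereas Col1a2 had a region of 46.0 kb with 3.48. Any cover at all was found over 18 collagens in KO and 16 in WT, and the shares of all genes with any cover were not computed. With a signal of at least 1, 8 collagens were covered in KO (13.9% of all genes). With at least 3, 2 were (4.17%), namely Col1a2 and Col11a2. Of the 14 gained, 9 lay in H3 regions in KO, a share that was not computed for all genes gained. Col3a1, Col5a2 and Col12a1, which H3.3-Flag covered in both genotypes, had 0% H3.3-HA cover in KO, and 0%, 0% and 6.55% in WT. Of 18 collagens with H3.3-HA in KO, 7 were covered by H3.3-Flag too, and the share of all genes with both was not computed.

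PML regions in WT covered 1 collagen (12.3% of all genes), Col22a1, for 100%, and 0 in KO (1.39%). Col22a1 (chromosome 15, 71795795 to 72150979), a gene of muscle and tendon junctions, had RNA of at most 0.0378 FPKM. It gained H3K27me3, at 100% in KO against 40.3% in WT, and was covered by H3K9me3 in both, at 100% and 92.7%. H3 regions held 20 collagens in KO (35.6% of all genes) and 17 in WT (23.8%), with 5 gained (15.6%) and 2 lost (3.76%), Col15a1 and Col22a1. Of the 44 genes, 15 lie next to another collagen, so that neighbours such as Col3a1 and Col5a2 or Col6a4 and Col6a5 can share 1 region.

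The genes that build, bind and remove collagen were taken from 5 lists of 81 genes in all. Counts are of the genes used in each pair, fewer than 81, with the number used given by list below. In the numbered pair as deposited 22 were lower by 2-fold or more and 3 higher, and rescaled to the same sum 25 were higher and 4 lower. The shares of all genes were 6.50% higher and 15.7% lower as deposited, and 57.6% and 5.53% rescaled to the same sum. The unnumbered pair had 5 higher and 7 lower, against 1.75% and 3.83% of all genes. Of the genes that modify and fold the chains, 7 of 22 were lower and 0 higher in the numbered pair as deposited (0 lower and 9 higher rescaled to the same sum) and 0 of 22 passed 2-fold in the unnumbered pair. Serpinh1, the collagen chaperone HSP47, had 615 FPKM in KO against 2092 in WT of the numbered pair, and 1346 against 1718 in the unnumbered pair (-1.76 and -0.35). Fkbp10, another chaperone, had 75.7 FPKM in KO against 319.7 in WT, and 196 against 176. P4ha3, a prolyl hydroxylase subunit, had 5.65 FPKM in KO against 25.0 in WT, and 26.98 against 21.5. The unnumbered differences farthest from 0 in this list were those of Leprel1 (-0.84), P4ha2 (0.54) and P4ha1 (0.42), all subunits or relatives of prolyl hydroxylases.

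Of the genes for cleavage and cross-linking, 5 of 12 were lower and 0 higher in the numbered pair as deposited (1 and 3 rescaled to the same sum), and 1 of 13 lower and 2 higher in the unnumbered pair. Adamts2, the protease that trims the amino end of fibrillar procollagens, was at least 2-fold lower in KO in both. It had 2.30 FPKM in KO against 48.1 in WT of the numbered pair, and 10.6 against 28.2 in the unnumbered pair, and it stayed past 2-fold in the numbered pair rescaled to the same sum. Pcolce2, an enhancer of the cut at the other end, had 6.36 FPKM in KO against 15.0 in WT, and 14.1 against 3.07. Tll1, a protease of that cut, and Loxl3, a lysyl oxidase, had numbered differences of -1.84 and -1.66 and unnumbered ones of 0.80 and 0.71. Loxl4, a further lysyl oxidase, had -0.73 and 1.28.

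Of the receptors, 2 of 7 were lower and 1 higher in the numbered pair as deposited (1 and 2 rescaled to the same sum) and 0 of 7 passed 2-fold in the unnumbered pair. Itga11, an integrin subunit of fibroblasts that binds type I collagen, had 4.96 FPKM in KO against 64.0 in WT of the numbered pair, and 104 against 108 in the unnumbered pair. The endocytic receptor Mrc2 had 22.2 FPKM in KO against 45.8 in WT, and 75.8 against 105. Gpr56, a receptor for type III collagen, had 3.64 FPKM in KO against 0.519 in WT, and 0.539 and 0.220. Itgb1, the common beta chain, was at 0.84 and 0.78 in the pairs and Ddr1, a kinase that collagen activates, at -0.28 and 0.83.

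Of the genes for degradation, 4 of 8 were lower and 0 higher in the numbered pair as deposited (2 and 2 rescaled to the same sum), and 4 of 12 lower and 0 higher in the unnumbered pair. Ctsk, a collagen-cutting cathepsin, was lower in both, with 0.241 FPKM in KO against 6.97 in WT of the numbered pair and 15.9 against 36.6 in the unnumbered pair (-2.68 and -1.15). The inhibitor Timp1 had 544 FPKM in KO against 5017 in WT, and 355 against 225. Timp3 had 127 FPKM in KO against 540.3 in WT, and 145 against 241. Mmp3 had 3.55 FPKM in KO against 26.3 in WT of the unnumbered pair and 0.0282 FPKM in KO against a listed 0 in WT of the numbered pair, and Fap had 2.38 against 11.3. In that pair macrophage markers were lower in KO too, with the sums given above, and their part was not tested.

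Of the TGF-beta axis, which drives collagen genes in fibroblasts, 4 of 17 were lower and 2 higher in the numbered pair as deposited (0 and 9 rescaled to the same sum), and 2 of 17 lower and 3 higher in the unnumbered pair. Ctgf, a common TGF-beta target, was lower in the numbered pair, at -1.28 as deposited, and higher in the unnumbered pair, at 1.31. It had 800.3 FPKM in KO against 1944 in WT, and 804 against 324. The ligand gene Tgfb2 had the same signs, with 5.68 FPKM in KO against 14.1 in WT, and 42.1 against 15.8. The co-receptor gene Tgfbr3 went the other way, with 8.69 FPKM in KO against 1.98 in WT, and 3.34 against 11.1. Ltbp2, of the family that binds latent TGF-beta in the matrix, had 86.6 FPKM in KO against 235 in WT, and 109.6 against 125. Thbs1, which activates latent TGF-beta, had 856 FPKM in KO against 2520.5 in WT, and 5230.1 against 2700 in the unnumbered pair.

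**Figure D5:**
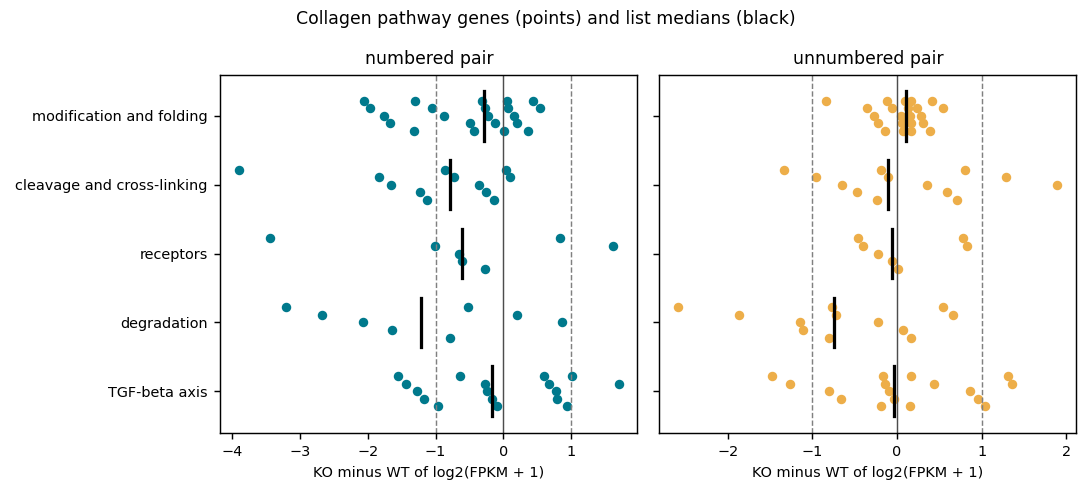
KO minus WT of log2(FPKM + 1) (x axis) for the genes of 5 collagen pathway lists (y axis), each point 1 gene used in that pair from 1 table per genotype, black bars at list medians and dashed lines at 2-fold. In the numbered pair the list medians lie between -1.21 and -0.17 as deposited and move above 0 for 4 of the 5 lists when the tables are rescaled to the same sum, and in the unnumbered pair they lie between -0.75 and 0.11.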

How the data were processed

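RNA values are FPKM that the authors deposited in 1 table per genotype and pair. Per the submitters' processing notes the build was mm10 and the tools were Cuffdiff 2.2.1, Cufflinks 2.2.1, TopHat2 2.0.8b and Bowtie 1.0.0, with no role given. The numbered tables are the authors' merge of 3 replicates. The ChIP files hold the regions the authors deposited with a signal value per region for H3.3, H3K27me3 and H3K9me3. A score per region, deposited by the authors in each list, was not used. The region caller and the scaling of the signal are not given in the sources used here. Signal multiplied by length in kb was a whole number for 100% of regions on chromosomes 1 to 9 and X but for 19.6% to 65.1% on chromosomes 10 to 19, so signals were used only as minimums and described within a library. Read depth is unknown, so no detection limit is given.

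Lines naming several genes (267 to 271 per table) were left out, save that of Col7a1 and Mir711, as were names found on more than 1 line (331 to 362 lines). Differences are KO minus WT of log2(FPKM + 1) for genes at 1 FPKM or more in either genotype. With no replicate values there is no test. Named genes are all collagens at 1 FPKM or more in a table, and pathway genes past 2-fold the same way in both pairs or among the 3 differences farthest from 0 per list and pair. A gene of the TGF-beta list is not reported here and was left out of its counts. Genes named beyond that were chosen after their values were seen. The members and lists were chosen with earlier results of these data known. Cover was computed for 21523 protein-coding genes. Alternatives were another pseudocount, minimum, fold, scaling, cover limit, signal minimum or window, and removal of H3 regions. Python 3.11.15, numpy 2.4.6, pandas 2.3.3 and matplotlib 3.10.9 were used, and the code was tested on simulated data. Unused columns of per-sample values numbered 0.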

Additional observations from a re-analysis of the deposited data

Results flagged for a closer look

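In 6 genes the KO minus WT difference in log2(FPKM + 1) had opposite signs in the numbered and the unnumbered pair at the sizes set here. These were 1.5-fold or more in both pairs for a collagen and 2-fold or more in both for a pathway gene. Genes of opposite sign with a smaller difference in either pair are not listed. The difference between the pairs was not tested. Col18a1 stood at 1.63 in the numbered and -0.81 in the unnumbered pair. Col2a1 had -1.13 and 0.99. Pcolce2 had -1.12 and 1.89, and Tgfb2 had -1.18 and 1.35. Tgfbr3 had 1.70 and -1.48. Ctgf had -1.28 and 1.31. With the numbered tables rescaled to the same sum, Col2a1 had 0.063 in that pair, the same sign as in the unnumbered one, and Pcolce2, Tgfb2 and Ctgf no longer passed 2-fold there.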

How the results depend on the processing

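No paired analysis was possible because the authors merged the numbered replicates into 1 table per genotype, and leaving out each replicate could not be run for the same reason. The cause of each change below was not tested unless stated.

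In the numbered pair the median collagen difference was -1.13 with a pseudocount of 0.1, 0.000742 with no minimum, -0.85 with a minimum of 5 FPKM, 0.075 rescaled to the same sum and -0.38 rescaled without ribosomal protein genes. Collagens higher and lower numbered 7 and 0 rescaled to the same sum, and 5 and 6 without ribosomal protein genes, and 2 were higher at 1.5-fold. Rescaled to the same sum, Col2a1 was at 0.063, Col5a1 at 0.075 and Col4a1 at 0.11. Pathway genes higher and lower then numbered 25 and 4, against 57.6% and 5.53% of all genes. Without ribosomal protein genes they numbered 13 and 10, against 36.3% and 8.68%. These alternatives for the pathway genes were chosen after seeing the data. In the unnumbered pair 2 collagens were higher with a pseudocount of 0.1, rescaled to the same sum or at 1.5-fold, 11 were lower at 1.5-fold, and the median was -0.10 with no minimum. Without ribosomal protein genes, collagens held 0.896% of FPKM in KO and 1.14% in WT of the numbered pair, and 2.02% and 2.58% in the unnumbered pair.

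Shares of all genes under the same setting stand in brackets. Counts within 5 kb of the start are of the 35 collagens with a matched start, and their shares of 17274 genes with one. For H3.3-Flag, 15 collagens were covered in WT at a limit of 25% (29.8%), and 0 were gained within 5 kb of the start (2.10%). Without bases in H3 regions 5 were covered in KO (13.7%) and 5 in WT (13.3%), with 0 gained (1.26%) and 0 lost (1.44%). For H3.3-HA, a signal of at least 1 gave 8 covered in KO (13.9%), 6 gained (9.78%) and 1 lost (4.76%). A signal of at least 3 gave 2 (4.17%), 2 (2.16%) and 3 (6.71%). In WT 7 were covered at 25% and 7 within 5 kb of the start, where 6 were gained and 1 lost. Without H3 bases 4 were covered in KO (10.0%) and 0 in WT (4.33%), with 4 gained (7.13%). For H3K27me3, a signal of at least 3 gave 11 covered in KO (28.6%) and 1 gained (3.99%). Without H3 bases 10 were covered in KO (17.3%) and 10 in WT (16.7%), with 3 lost (2.84%). For H3K9me3, 14 were covered in KO (30.0%) and 11 in WT (25.4%) at 25%, and 12 (25.4%) and 1 (8.36%) at a signal of at least 3. Within 5 kb of the start 6 were covered in KO (23.3%) and 4 in WT (18.3%), with 4 gained (12.8%) and 2 lost (7.98%). Without H3 bases 4 were covered by H3K9me3 in KO (9.68%) and 0 in WT (12.7%), with 4 gained (3.78%). Removing H3 bases lowers every share by construction, since the whole body stays the denominator. A signal minimum was the same for KO and WT although their scaling is unknown. Median region signal was 1.48 in KO and 16 in WT for H3.3-HA, and 8.48 and 3.83 for H3K9me3. The part of that scale in the gains and losses at a signal minimum was not tested.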
